A study of Mus musculus with 10 samples.

Results

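Ccl1, Ccl3, Ccl4, Ccl5 and Xcl1 are chemokine genes that T cells are known to express. They were chosen by name, and all 5 were found among the 25814 genes of each deposited table. RNA had been sequenced from primary keratinocytes and from splenic T cells isolated with CD8 microbeads, and C57/B6 mice were used. As sources of keratinocytes the paper names adult tails and newborn mice, and it does not say which were sequenced. The 5 groups held 2 libraries each. Keratinocytes were cultured alone or co-cultured with CD8+ T cells that had received αCD3/CD28 Abs. The T-cell groups were CD8+ T cells after 1 d with these Abs (activated), such cells after 1 further day in keratinocyte medium, and such cells after co-culture with keratinocytes. All T cells had thus been activated, and no resting T cells were measured. The paper describes the medium as a mix of keratinocyte medium and X-vivo. The design text gives a shorter co-culture than the labels and the paper, which both give 1 d. After co-culture, the T cells were washed off and both cell types were collected apart.

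Chemokines are small secreted proteins that guide cells carrying the matching receptors. CCL3 and CCL4 are also known as MIP-1α and MIP-1β, and CCL5 as RANTES. CCL3 and CCL5 bind CCR1, and CCL5 also binds CCR3. CCL1 is the ligand of CCR8, and XCL1 (lymphotactin) binds XCR1 on cross-presenting dendritic cells. In CD8+ T cells, Ccl3, Ccl4 and Xcl1 are known as genes that are turned on rapidly by the antigen receptor, whereas Ccl5 is known for late and lasting expression in effector and memory cells.

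In the GRCm38 coordinates of the tables, 4 of the genes lie on chromosome 11, which are Ccl5 (83525778 to 83530518, minus strand), Ccl3 (83647844 to 83649355, minus strand), Ccl4 (83662584 to 83664683, plus strand) and Ccl1 (minus strand). Xcl1 lies on chromosome 1 (164931644 to 164935527, minus strand). Ccl3, Ccl4, Ccl5 and Xcl1 have 3 exons each. For Ccl1 the tables give 82176657 to 82305690, but its exon length of 613 bases equals the summed exons of the 2 coding transcripts in GENCODE vM21, which end at 82179812. All exon reads of the 5 genes were uniquely mapped, and no other gene of the tables overlaps them.

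The bases before the start of transcription are shown for Ccl3, Xcl1 and Ccl1, since these are the members for which the RefSeq promoter table (GRCm38.p6) holds a window. Each sequence is the 250 bases upstream of the start, on the strand of the gene, and capitals mark GGAAA or its reverse complement, the core of sites for NFAT, a factor activated by calcium signals of the antigen receptor.
Ccl3, chr11:83649379-83649628, minus strand: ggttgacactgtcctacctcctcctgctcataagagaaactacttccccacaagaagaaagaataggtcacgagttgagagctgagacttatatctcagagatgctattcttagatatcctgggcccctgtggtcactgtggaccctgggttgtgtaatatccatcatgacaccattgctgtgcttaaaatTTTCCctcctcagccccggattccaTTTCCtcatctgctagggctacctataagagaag
Xcl1, chr1:164935523-164935772, minus strand: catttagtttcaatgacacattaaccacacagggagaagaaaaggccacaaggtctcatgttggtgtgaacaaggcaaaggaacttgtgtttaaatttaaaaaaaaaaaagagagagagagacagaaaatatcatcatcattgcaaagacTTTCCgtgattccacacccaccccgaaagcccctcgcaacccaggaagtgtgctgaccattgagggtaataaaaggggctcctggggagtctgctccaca
Ccl1, chr11:82179813-82180062, minus strand: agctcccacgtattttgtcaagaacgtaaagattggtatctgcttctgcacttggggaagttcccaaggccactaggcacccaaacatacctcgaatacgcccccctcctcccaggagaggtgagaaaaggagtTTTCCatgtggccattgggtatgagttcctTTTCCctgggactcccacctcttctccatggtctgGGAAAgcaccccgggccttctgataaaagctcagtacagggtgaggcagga
Ccl1 held 3 such matches, Ccl3 held 2 and Xcl1 held 1. At least 1 match was found in 55.6% of 32851 promoters of the same length, at least 2 in 21.4% and at least 3 in 6.39%. On both strands, the AP-1 motif TGANTCA (6.75% of all promoters) and the TATA box TATAAA (12.4%) had no match in these 3 windows. The matches describe letters and do not show binding.

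Exon reads per library numbered 12864931 to 18019609. A floor of 3 reads on 1 kb of exons corresponds to 0.158 to 0.212 RPKM (reads scaled to exon length and to a total of reads for the library), which covers counting error only. The T-cell libraries held RNA of the CD8+ lineage, with 110.0 to 333.9 RPKM of Cd8a and 141.2 to 762.4 RPKM of Cd8b1. They also held 16.8 to 102.3 RPKM of Cd4, the co-receptor of helper T cells. Summed markers of B cells (4.01 to 52.9 RPKM), myeloid cells (15.4 to 67.6) and NK cells (6.99 to 94.97, mostly Gzma) were present in them. Gzma is also expressed by cells other than NK cells, so that this sum is no measure of NK-cell RNA. The other NK markers Ncr1, Klrb1c and Klre1 were each at 4.84 RPKM or less. Ncr1 had 0 reads in both libraries of co-cultured T cells. Summed keratinocyte markers were at most 2.77 RPKM in activated T cells and T cells in medium, and 36.8 and 111.5 RPKM in co-cultured T cells. Mast cell markers reached at most 0.4 RPKM in all libraries. The γδ T-cell genes Trdc and Tcrg-C1 are listed with an exon length of 0 and could not be measured. Fewer cells of a type and less RNA per cell cannot be told apart in such bulk samples.

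After 1 further day of culture, the RNA levels of Ccl3, Ccl4 and Xcl1 had fallen in T cells, both in medium and upon co-culture, and Ccl5 was not called lower. Medium, time after activation and the end of the treatment with αCD3/CD28 Abs changed together and cannot be told apart. Against activated T cells, the T cells of both later groups had 21.2-fold less Ccl3, 13.4-fold less Ccl4 and 11.4-fold less Xcl1 RNA. These changes passed edgeR's quasi-likelihood test over 6 T-cell libraries and 11863 genes. In this comparison 15% of the genes tested passed an adjusted p of 0.05 in either direction, and 9.4% were lower. Of the 5 chemokines, 3 were called lower and none higher.

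Ccl3 was measured at 291 and 260 RPKM in activated T cells, at 12.8 and 10.6 in medium, and at 11.8 and 11.0 upon co-culture. All 4 later libraries lay close together and far below both activated libraries. The log2 change was -4.41 (SE 0.25, adjusted p = 0.00051), and the gene ranked 2 of 11863 by p-value and 101 by the size of the fall.

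Ccl4, the neighbour of Ccl3 on chromosome 11, was measured at 210 and 397 RPKM in activated T cells. It was at 11.3 and 30.6 RPKM in medium and at 19.9 and 18.5 upon co-culture. The groups did not overlap, although the libraries of the activated group and of the medium group differed among themselves more than those of Ccl3. The log2 change was -3.75 (SE 0.46, adjusted p = 0.0035). It ranged from -4.25 to -3.14 with single libraries left out, with -3.14 without replicate 2 of the activated T cells, and passed the test each time.

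Xcl1 reached 335 and 216 RPKM in activated T cells. The later levels were 18.2 and 21.3 RPKM in medium and 15.7 and 29.1 upon co-culture, again without overlap. The log2 change was -3.51 (SE 0.36, adjusted p = 0.0025).

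Ccl1 was the member with the lowest level in every T-cell library. It was at 14.5 and 7.47 RPKM in activated T cells, which rest on 149 and 66 reads, at 3.80 and 1.42 in medium, and at 1.29 and 4.04 upon co-culture. Both activated libraries were above all later libraries, but the replicates of each group lay far apart. The log2 change of -1.86 (SE 0.73) did not pass the test in edgeR (adjusted p = 0.123). In limma on log2(RPKM + 1) it did, with -1.75 and an adjusted p of 0.0476. Levels of all 4 later libraries below both activated libraries, as for Ccl1, Ccl3, Ccl4 and Xcl1, were seen for 21.7% of the genes tested.

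Ccl5 differed from the others in its levels. It was at 68.0 and 323 RPKM in the activated libraries, at 300 and 335 in medium, and at 256 and 281 upon co-culture. Replicate 2 of the activated T cells lay within the range of the later libraries and replicate 1 far below it. The log2 change was 0.72 (SE 0.56, adjusted p = 0.43, 95% interval -0.58 to 2.02). This value rests on which activated library is used. Without replicate 1 of the activated T cells the change was 0.0006, and without replicate 2 it was 2.33 and passed the test (adjusted p = 0.0203).

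**Figure D1:**
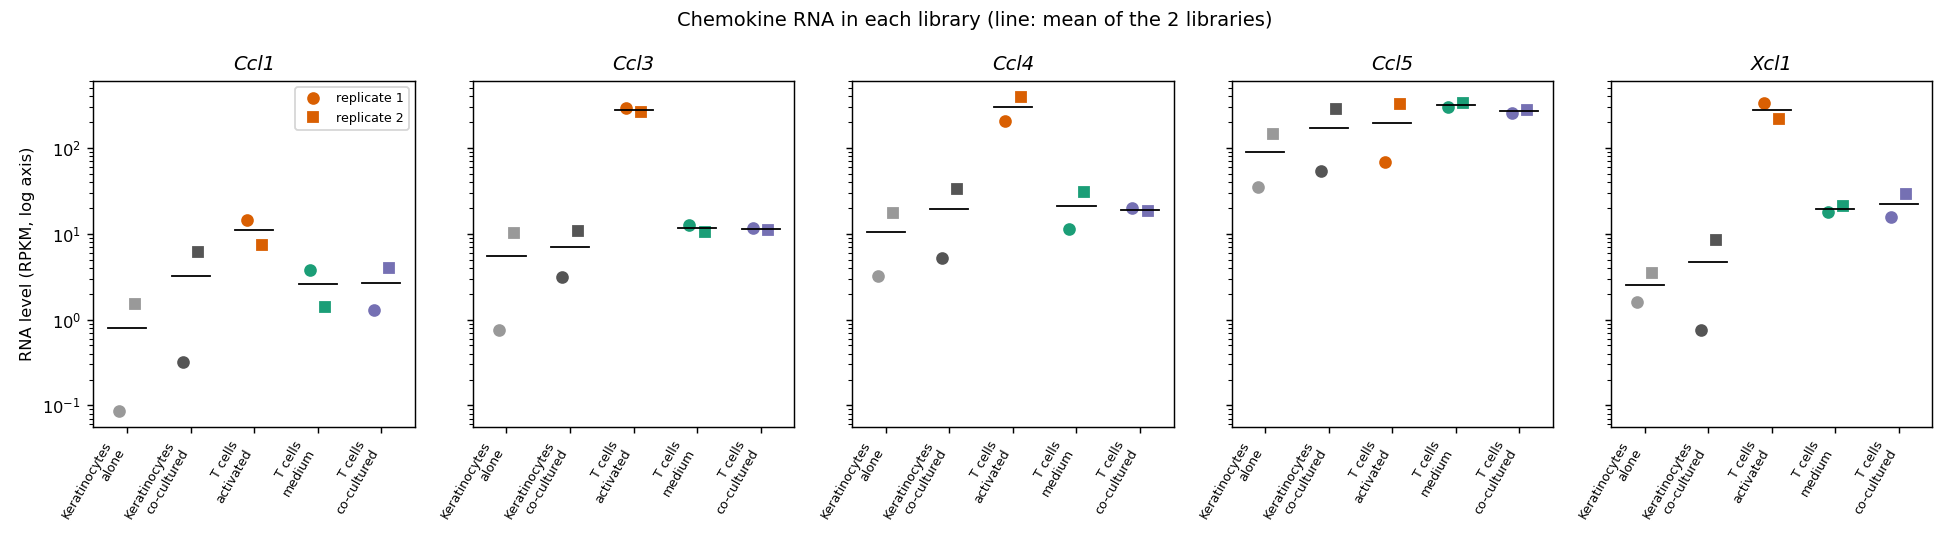
RNA levels of the 5 chemokines in each of the 10 libraries, in RPKM on a log axis, with a circle for replicate 1, a square for replicate 2 and a line at the mean of the 2 libraries. Ccl3, Ccl4 and Xcl1 sit between 210 and 397 RPKM in activated T cells and between 10.6 and 30.6 in the later T cells, whereas Ccl5 stays between 256 and 335 in the later T cells.

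With the fall of 3 genes, the make-up of the chemokine RNA shifted. The summed level of the 5 genes was 918 and 1203 RPKM in activated T cells and 305 to 399 RPKM in the later T cells. Ccl5 made up 7.41% and 26.8% of this sum in the activated libraries, and 81.8 to 86.7% in the 4 later libraries. The ratio of Ccl5 to Ccl3 was higher in all later libraries, by 5.56 on the log2 scale. For 4 libraries against 2, the exact two-sided permutation test gave p = 0.1333 for this ratio, which is the smallest p the design allows. In the later libraries Ccl5 was the highest and Ccl1 the lowest of the 5, and Ccl3, Ccl4 and Xcl1 changed places between libraries. In the activated libraries Ccl1 was the lowest, and the order of the other 4 differed between the replicates.

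The fall was then described for each later group, which share the activated libraries as control. In keratinocyte medium, the log2 changes were -4.42 for Ccl3 (adjusted p = 0.0035), -3.69 for Ccl4 (0.0189) and -3.64 for Xcl1 (0.0123) in edgeR, where 6.54% of the genes tested were called and 4.22% were lower. Ccl1 (-1.94, adjusted p = 0.228) and Ccl5 (0.82, 0.481) did not pass. The calls for Ccl4 and Xcl1 depended on single libraries. Without replicate 1 of the activated T cells their adjusted p values were 0.0501 and 0.059, and without replicate 1 of the T cells in medium 0.062 for both. Xcl1 also missed the threshold without replicate 2 of the T cells in medium (0.0721), while the log2 changes of both genes stayed at -3.08 or lower. The change of Ccl4 ranged from -3.08 to -4.69, the latter without replicate 2 of the T cells in medium.

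Upon co-culture, the log2 changes in edgeR were -4.40 for Ccl3 (adjusted p = 0.0016), -3.80 for Ccl4 (0.0107) and -3.39 for Xcl1 (0.0077), with 10.3% of the genes tested called and 5.72% lower. Ccl1 (-1.79, adjusted p = 0.233) and Ccl5 (0.63, 0.567) did not pass. All 3 calls held with any single library left out, although the sizes moved. Xcl1 ranged from -4.03 without replicate 2 to -2.94 without replicate 1 of the co-cultured T cells, and Ccl4 was at -3.20 without replicate 2 of the activated T cells. Ccl1, which was not called in any of these fits, ranged from -2.97 to -1.14. In a fit of all 10 libraries Ccl3 alone passed, both in medium (adjusted p = 0.0451) and upon co-culture (0.034), while Ccl4 (0.0899 and 0.0662) and Xcl1 (0.0605 and 0.0577) did not. In the fit of the 6 T-cell libraries, 544 genes were higher and 678 lower upon co-culture than in activated T cells. With library size in place of TMM normalization, 396 were higher and 762 lower. Without replicate 1 of the activated T cells, Ccl5 changed its sign to -0.10 (adjusted p = 0.93), and without replicate 2 it was at 2.24 (adjusted p = 0.029).

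The direct comparison of co-cultured T cells with T cells in medium asks what the keratinocytes added. None of the 5 chemokines passed the test in edgeR (adjusted p = 1 for each), and 0.261% of the genes tested did, all higher upon co-culture. The difference of Ccl3 was 0.02 on the log2 scale, with a 95% interval of -0.66 to 0.70. The intervals were wider for Xcl1 (0.25, from -0.75 to 1.25), Ccl4 (-0.11, from -1.37 to 1.15), Ccl5 (-0.19, from -1.64 to 1.26) and Ccl1 (0.15, from -1.90 to 2.20). The RNA of Krt14, a keratin of basal keratinocytes, was at 61.6 and 16.8 RPKM in co-cultured T cells and at 0.42 and 1.06 in medium, and its part in these values was not tested.

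**Figure D2:**
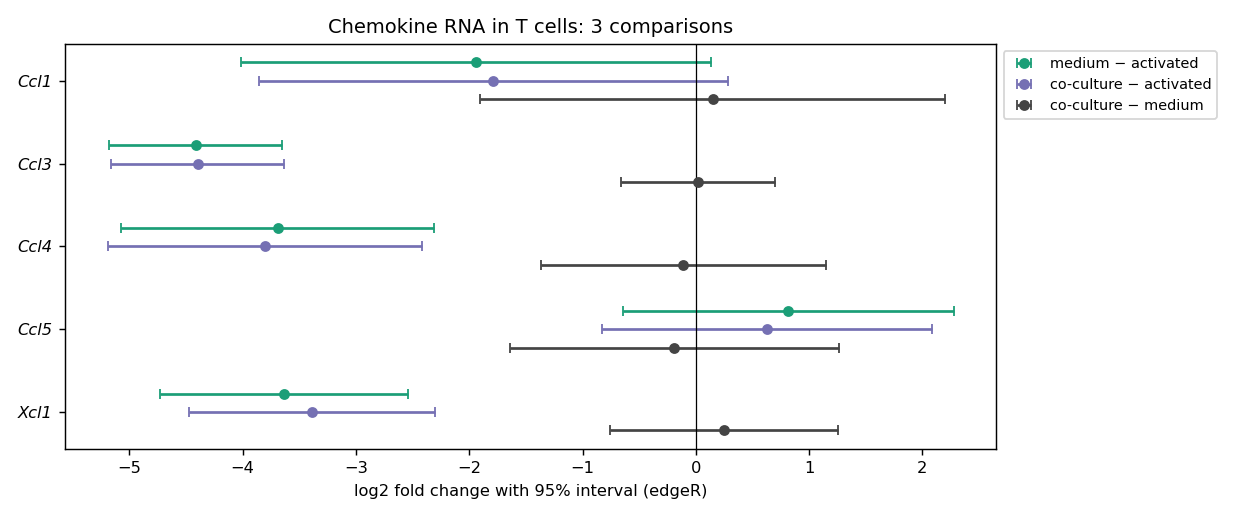
Log2 fold changes of the 5 chemokines in T cells from edgeR, with 95% intervals, for T cells in medium against activated T cells, co-cultured against activated, and co-cultured against medium. For Ccl3, Ccl4 and Xcl1 both comparisons with activated T cells lie between -3.39 and -4.42, and all 5 intervals of co-culture against medium include 0.

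RNA of the chemokines was also counted in keratinocyte libraries. In keratinocytes alone, Ccl5 measured 35.1 and 145 RPKM, and after co-culture 53.5 and 287. Ccl4 measured 3.19 and 17.6 RPKM in keratinocytes alone and 5.18 and 33.4 after co-culture. Ccl3 measured 0.757 and 10.2 RPKM, and then 3.18 and 10.9. Ccl5 was thus the highest of these in each library. Xcl1 measured 1.61 and 3.48 RPKM in keratinocytes alone and 0.755 and 8.58 after co-culture. Ccl1 measured 0.0859 and 1.53, and then 0.322 and 6.13. For each of the 5 genes, replicate 2 was above replicate 1 in both groups. The groups overlapped for all 5 genes.

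After co-culture, log2 changes in keratinocytes were 2.10 for Ccl1, 0.45 for Ccl3, 0.99 for Ccl4, 1.01 for Ccl5 and 0.99 for Xcl1, with SE of 1.05 to 1.84. None passed edgeR's test (adjusted p = 0.720 to 0.902). Of 12515 genes, 0 passed (0%), with 901 at an unadjusted p under 0.05, and DESeq2 called 186 genes but no chemokine. Without replicate 2 of the co-cultured keratinocytes, all 5 changes were negative, from -1.75 for Xcl1 to -0.78 for Ccl5.

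Whether the genes mark T cells in these cultures was checked against keratinocytes alone. In activated T cells, Xcl1 was higher by 6.59 on the log2 scale (SE 1.09, adjusted p = 0.0024), Ccl3 by 5.49 (SE 1.09, 0.0055) and Ccl4 by 4.73 (SE 1.14, 0.0128) in edgeR over 10 libraries. In this comparison 35.5% of the genes tested were called, and 13% were higher in T cells. Ccl1 was higher by 3.57 (SE 1.60) and did not pass (adjusted p = 0.112). Ccl5 differed by 1.00 (SE 0.97, adjusted p = 0.447), and its levels overlapped between both groups. The sizes rested on single keratinocyte libraries. Without replicate 1 of the keratinocytes alone Ccl3 was higher by 4.66 and Ccl1 by 2.73, and without replicate 2 by 8.46 and 6.75. Without that replicate 2, Xcl1 was higher by 7.37 and Ccl4 by 6.55. The call for Ccl4 was lost without replicate 1 of the keratinocytes alone (4.03, adjusted p = 0.0658), and Ccl5 turned to -0.53 (adjusted p = 0.757) without replicate 2 of the activated T cells. Xcl1, Ccl3 and Ccl4 RNA thus marked the activated T cells against keratinocytes alone. Ccl5 RNA was not limited to T-cell libraries, and neither was that of Ccl3 and Ccl4. In replicate 2 of the keratinocytes, Ccl3 was at 10.2 RPKM alone and 10.9 after co-culture, and Ccl4 at 17.6 and 33.4. The later T cells had 10.6 to 12.8 RPKM of Ccl3 and 11.3 to 30.6 of Ccl4. Replicate 1 of the keratinocytes was lower, with 0.757 and 3.18 RPKM of Ccl3 and 3.19 and 5.18 of Ccl4.

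The profile of Ccl5 over the 10 libraries was nearest to those of Rln3, Gpr15 and Cd4 among 8743 genes, as the root mean square difference of centred log2 levels (0.13, 0.20 and 0.20). Rln3 encodes relaxin 3, and Gpr15 a homing receptor of T cells. The ratio of Ccl5 to Cd4 RPKM was between 3.07 and 4.54 in all 10 libraries, and that to Rln3 between 17.3 and 24.8. Cd4 measured 11.4 and 43.5 RPKM in keratinocytes alone, 15.0 and 84.5 after co-culture, and 16.8 and 102.3 in activated T cells. Cd4 and Ccl5 were thus low and high in the same libraries. Their part in the results on Ccl5 was not tested.

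T-cell RNA was present in keratinocyte libraries with little RNA of the CD8 co-receptor. Cd3g, a subunit of the T-cell receptor complex, measured 34.8 and 126.1 RPKM in keratinocytes alone and 44.2 and 246.8 after co-culture. Cd8a measured 0.118 and 0.6 RPKM, and then 0.525 and 1.16. The myeloid gene Lyz2 was likewise lower in replicate 1 than in replicate 2, with 6.69 and 27.4 RPKM alone, 7.30 and 37.6 after co-culture, and 10.6 and 57.4 in activated T cells. The myeloid markers Csf1r, Adgre1 and Itgax were also lower in replicate 1 of these groups, at 3.60 RPKM or less. Cd68, another myeloid marker, went the other way in keratinocytes, with 40.7 and 39.4 RPKM alone and 29.7 and 24.0 after co-culture. In activated T cells Cd68 was at 3.83 and 4.42 RPKM. Ccl5 made up 81.6 to 86.1% of the summed RPKM of the 5 chemokines in keratinocyte libraries, against 81.8 to 86.7% in the later T cells. The source of this RNA was not tested.

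**Figure D3:**
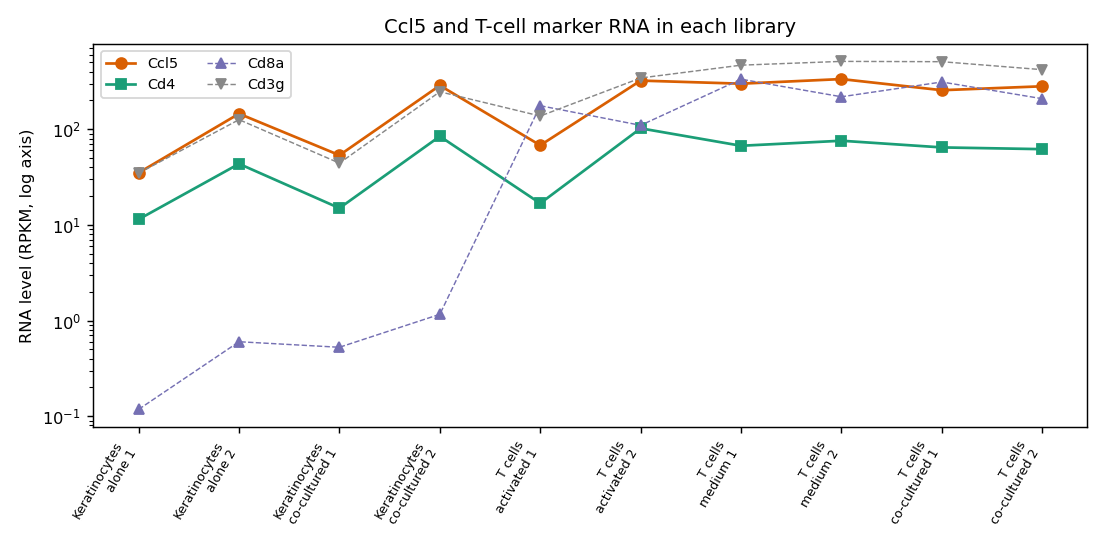
RNA levels of Ccl5, Cd4, Cd8a and Cd3g in each of the 10 libraries, in RPKM on a log axis; lines join the points of a gene across libraries and mark no order in time. Ccl5 follows Cd4 at a ratio of 3.07 to 4.54, whereas Cd8a is at 1.16 RPKM or less in the keratinocyte libraries.

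The profiles of the genes that fell had other neighbours. Nearest to Ccl3 were Nr4a3, Tnfrsf9 and Prf1 (0.55 to 0.61), to Ccl4 Tnfrsf9, Ccl3 and Nfkbid (0.67 to 0.72), and to Xcl1 Tnfrsf9, Utf1 and St6galnac4 (0.59 to 0.62). Tnfrsf9, which encodes the co-stimulatory receptor 4-1BB, stood among the 3 nearest genes of all 3 chemokines, with 161.3 and 156.2 RPKM in activated and 7.78 to 13.7 RPKM in later T cells. Ccl1 was nearest to Rgs1, Pdcd1lg2 and Tnfrsf4 (0.72 to 0.74). Among the members, Ccl3 and Ccl4 were the closest pair (0.70), and Ccl5 and Xcl1 the most distant (2.32). These distances describe 10 libraries that share their groups and depth.

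The receptor genes listed for the chemokines showed no called change. Of 8 receptor genes listed, 6 passed the filter on low counts. In edgeR none was called in later against activated T cells, with a median log2 change of -0.14, against -0.03 for all genes tested. Ccr4, which encodes a receptor of CCL22, was also on this list. It was at 11.0 and 16.05 RPKM in activated and at 9.13 to 11.8 in later T cells (log2 change -0.15, SE 0.33). Ccr8, the receptor of CCL1, was at 7.999 and 18.4 RPKM, and at 4.90 to 11.3 later (-0.55, SE 0.46). Ccr1, Ccr3 and the XCL1 receptor Xcr1 stayed below 1 RPKM in all 6 libraries, and the decoy receptors Ackr1 and Ackr2 did not pass the filter.

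Of 16 other CC chemokines, 6 passed the filter, of which 3 fell and 3 were not called (median log2 change -0.89). This median describes no common fall, since Ccl6, Ccl25 and Ccl27a had higher mean levels in later T cells and were not called. In activated T cells, medium and co-culture, Ccl6 was at 0.499, 2.10 and 2.16 RPKM. Ccl25 was at 0.432, 1.27 and 1.08, and Ccl27a at 0.442, 1.70 and 1.22. Ccl22, a ligand of CCR4, was at 20.9 and 21.0 RPKM in activated and at 0.942 to 2.34 in later T cells (-3.41, SE 0.39, adjusted p = 0.0029). Ccl9 was at 14.5 and 2.89 RPKM, and at 0.109 to 0.713 later (-4.10, SE 0.76, adjusted p = 0.013). Ccl24, named after its values had been seen, was at 0.597 and 1.88 RPKM and had 0 reads in all later libraries, at least 7.55-fold lower against the floor of 3 reads per library (adjusted p = 0.0449). With Ccl24 at this bound the median was -0.65.

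Some cytokine genes of activated T cells fell too. Of 10 listed, 9 passed the filter, 4 fell and 5 were not called (median -2.90). Ifng, which encodes interferon-γ, fell from 612.6 and 589.2 RPKM to between 3.26 and 7.20 (log2 change -6.56, SE 0.37, adjusted p = 0.00051). Lta, encoding lymphotoxin-α, fell from 96.5 and 44.2 RPKM to between 5.66 and 8.17 (-3.15, SE 0.35, adjusted p = 0.0029). Il3 was at 13.9 and 21.5 RPKM and had 0 reads in all later libraries, at least 52.5-fold lower against the floor of 3 reads per library. Csf2, which encodes GM-CSF, was at 6.47 and 9.46 RPKM and at most at 0.353 later (adjusted p = 0.0179).

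Of 26 genes for regulators of transcription in activated T cells, all passed the filter, 10 fell and 16 were not called (median -1.07). Those that fell were the AP-1 genes Fosl2 and Junb, the early response genes Egr1, Egr2, Egr3 and Nr4a1, Nfkb2, Irf4, Myc and Eomes. Irf4, a factor induced by the antigen receptor, was at 77.2 and 36.4 RPKM in activated and at 5.65 to 6.11 in later T cells (-3.09, SE 0.31, adjusted p = 0.0025). Egr2 fell by 2.60 (SE 0.35) on the log2 scale, and the change of Nr4a1 was -2.504 (SE 0.32). The NFAT genes Nfatc1 (-0.31), Nfatc2 (0.00) and Nfatc3 (1.00, adjusted p = 0.0547) were not called.

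Of 7 killing genes, 2 fell and 5 were not called (median -0.28). Gzmb, encoding granzyme B, was at 2966 and 1968 RPKM in activated T cells, at 134.2 and 173.8 in medium and at 391.0 and 573.5 upon co-culture (-2.98, SE 0.31, adjusted p = 0.0025). Prf1, encoding perforin, was at 48.8 and 31.2 RPKM, and at 2.68 to 5.59 later (-3.13, SE 0.34, adjusted p = 0.0028). Of the 6 CD8 T-cell markers, Cd8b1 was called higher in both later groups against activated T cells (1.52, adjusted p = 0.0493) and 5 were not called.

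**Figure D4:**
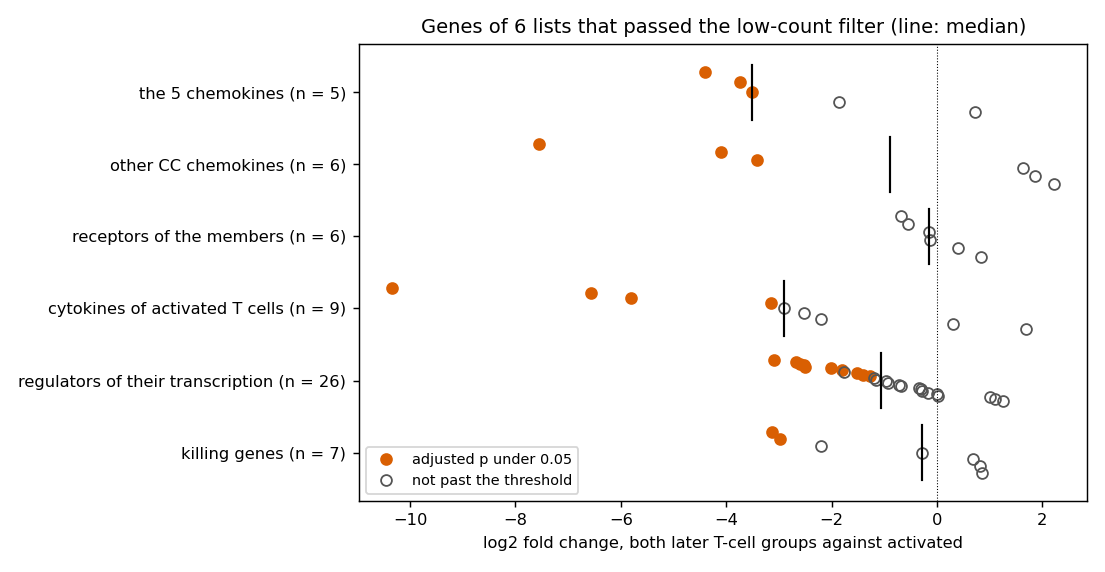
Log2 fold changes of both later T-cell groups against activated T cells for the 5 chemokines and the genes of 5 lists that passed the filter on low counts, from edgeR. Filled points passed an adjusted p of 0.05, open points did not, and vertical lines are medians, at -3.51 for the chemokines, -2.90 for the cytokines and -0.14 for the receptors; Il3 and Ccl24, the points farthest to the left in their lists, had 0 reads in later T cells, so that their fitted values are no estimates of size.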

How the data were processed

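The authors prepared poly(A) RNA libraries with NEBNext kits and mapped single-end reads to GRCm38 with the CLC Genomics Workbench. The annotation release was not given in the sources used here. The authors deposited, for each library, counts of total, uniquely mapped, exon-exon and intron reads per gene without normalization, and RPKM values. Within each library RPKM was proportional to exon reads per exon length, and the total behind it was back-calculated from the values.

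Groups came from the labels. Replicate numbers are in the labels of both keratinocyte groups and of activated T cells. The others only name libraries. The labels do not say whether replicates were separate animals, so that p-values measure the spread between these libraries.

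Exon reads were tested by the quasi-likelihood method of edgeR 4.0.16 (R 4.3.3), after filterByExpr and TMM, with Benjamini-Hochberg adjustment over all genes tested. The 6 T-cell libraries, the 4 keratinocyte libraries and, for T cells against keratinocytes, all 10 were fitted. The SE is the size of the log2 change divided by the square root of F. As alternatives, limma 3.58.1 on log2 RPKM with pseudocounts of 1 or 0.1, DESeq2 1.42.0, library size, other filters, uniquely mapped reads, other sets of libraries, a replicate block and each library left out were tried. Scripts were tested on simulated data.

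The members and lists were chosen with earlier results of these data known. Named were the members, the receptors and the 3 nearest profiles of each member. List genes were named with an adjusted p under 0.05 in later against activated T cells and a mean of 5 RPKM in any T-cell group. Nfatc1, Nfatc2, Nfatc3, Gzma and the markers Krt14, Cd8a, Cd8b1, Cd3g, Lyz2, Csf1r, Adgre1, Itgax, Cd68, Ncr1, Klrb1c and Klre1 fall outside this rule. They were chosen after their values were seen, as were Ccl6, Ccl24, Ccl25 and Ccl27a. The values of 1 listed gene are not reported here.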

Additional observations from a re-analysis of the deposited data

Results flagged for a closer look

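Intron reads, which no comparison used, exceeded the 3 reads that a count of 0 allows for Ccl4, Xcl1 and Ccl1. Ccl4 had 6 and 14 intron reads in activated T cells and 6 in replicate 1 of the co-cultured T cells. Xcl1 had 10 in replicate 2 and Ccl1 had 6 in replicate 1 of the activated T cells. In keratinocytes alone these 3 genes had at most 3 intron reads. The region given for Ccl1 ends at 82305690, far beyond its coding transcripts, which end at 82179812. Where in that region its intron reads lay is not known, so they are not comparable with those of Ccl4 and Xcl1. Over all 10 libraries the 5 chemokines had 60 intron reads against 38282 exon reads. Groups of 2 libraries were too small for a test of outlying libraries.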

How the results depend on the processing

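Of 446 changes of single chemokines recomputed under the alternatives, 406 kept their direction and their side of the threshold, 21 changed sign, 10 lost and 9 gained a call. The falls of Ccl3, Ccl4 and Xcl1 in both later groups pooled against activated T cells passed under every alternative tried. With library size in place of TMM normalization the median of all genes in that comparison moved to -0.16, and these falls remained beyond it. Ccl1 passed in limma on log2(RPKM + 1), at -1.75. The groups of 2 libraries limit all tests. The cause of the changes below was not tested.

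With DESeq2, 2854 genes were called for both later groups against activated T cells, 1947 for medium, 2344 for co-culture, 87 for co-culture against medium and 186 for keratinocytes. Without a filter these counts were 2860, 1945, 2425, 141 and 11. For co-culture against medium, limma called 99 genes with a pseudocount of 1 and 107 with 0.1, the fit of all 10 libraries called 83, and the filter of 10 counts in every library left 0. In the fit of all 10 libraries, 1 of the 5 chemokines (Ccl3) was called in medium and 1 (Ccl3) upon co-culture. For co-culture against medium, where no chemokine was called under any alternative, Ccl1 changed sign to -0.0066 and -0.0242 in limma with pseudocounts of 1 and 0.1, Ccl3 to -0.027 and -0.0287 and, with library size, to -0.044, and Ccl4 to 0.0371 and 0.047.

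With single libraries left out, 356 to 1818 genes were called for both later groups against activated T cells, 24 to 1067 for medium, 266 to 1093 for co-culture, 16 to 52 for co-culture against medium, 0 to 1164 for keratinocytes and 2394 to 4943 for activated T cells against keratinocytes. Of these, 356 and 266 came without replicate 1 of the activated T cells, 24 and 16 without replicate 2 of the T cells in medium, and 1164 without replicate 1 of the co-cultured keratinocytes. In medium, 1 to 4 chemokines were called. Ccl5 ranged from 0.0006 to 2.33 for both later groups, from -0.10 to 2.24 upon co-culture, and from -0.53 to 2.48 for activated T cells against keratinocytes. For co-culture against medium, the ranges were -1.03 to 0.91 for Ccl1, -0.046 to 0.061 for Ccl3, -0.72 to 0.88 for Ccl4 and -0.39 to 0.69 for Xcl1. In keratinocytes they were -1.31 to 5.22 for Ccl1, -0.81 to 3.36 for Ccl3, -1.03 to 2.76 for Ccl4, -0.78 to 2.45 for Ccl5 and -1.75 to 1.87 for Xcl1.

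The replicate numbers are shared by the keratinocyte groups and the activated T cells, and no label says that a number marks a shared batch. Deviations of libraries with the same number correlated at 0.558 over 12515 genes between both keratinocyte groups, and at 0.243 over 12666 genes between activated T cells and keratinocytes alone. With a replicate block, 2 genes were called in keratinocytes, neither a chemokine. For activated T cells against keratinocytes, the replicate block called all 5 chemokines, Ccl1 at 4.05 (adjusted p = 0.0479) and Ccl5 at 0.97 (0.0366) included. No paired analysis was possible for the later T cells because their labels carry no replicate numbers.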

Other observations

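Whether co-culture acted differently on the chemokines in keratinocytes and in T cells was tested in a fit of all 10 libraries, which was added after the data had been seen. The effect in keratinocytes minus that in T cells was 1.89 on the log2 scale for Ccl1 (SE 2.09), 0.41 for Ccl3 (SE 1.30), 1.10 for Ccl4 (SE 1.40), 1.18 for Ccl5 (SE 1.37) and 0.71 for Xcl1 (SE 1.25). None passed edgeR's test (adjusted p = 0.974 to 1).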
